A study of Mus musculus with 18 samples.

Results

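The genes described here are 10 members of the Wnt and R-spondin pathway around the hepatic central vein: the ligands Rspo3, Wnt2 and Wnt9b, the receptor Lgr5, the feedback genes Axin2, Znrf3, Rnf43 and Notum, the transcription factor Tbx3 and the secreted factor Lect2. They were chosen by name, and their probes were found through the RefSeq accession of each probe. All 10 are on the array, which covers 32451 genes, and 9 of the 10 were among the 24808 genes bright enough to test. Wnt2 was not well above background on all arrays of any group and was not tested.

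Liver RNA came from male C57BL/6 mice aged 6 weeks, fasted for 12 h and then given a single oral dose of monocrotaline (MCT) at 270 or 330 mg/kg, or saline, with 8 mice per group and livers taken 48 h after the dose. MCT is a plant pyrrolizidine alkaloid that hepatocytes turn into reactive pyrroles, and it is used to model sinusoidal obstruction in rodents. No allele was altered in any group. RNA of 9 mice, 3 per group, was labelled as hybridised to 9 one-colour Agilent whole-genome arrays.

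Wnt ligands and R-spondins are released by endothelial cells of the central vein and act on the hepatocytes next to it. Wnt binding to Frizzled receptors stabilises beta-catenin, which turns on target genes with Tcf/Lef factors. R-spondins, through Lgr receptors, hold back the ubiquitin ligases Znrf3 and Rnf43, which otherwise remove Frizzled from the membrane. This signal maintains the pericentral programme of the liver lobule, with glutamine synthesis, bile acid synthesis and much of the cytochrome P450 metabolism.

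The 9 arrays did not behave as 9 independent samples. Replicates 2 and 3 of each group shared the deviations of single spots from their probe's mean, with a correlation across 2281 repeated spots of 0.802 in control, 0.921 at MCT 270 and 0.734 at MCT 330, against 0.0438 to 0.537 between arrays of different groups. Spots on an array scanned again would share them in this way. MCT 330 replicates 1 and 2 had separate spot deviations (correlation 0.278) but differed by a median of only 0.850 times the noise between repeated spots, where separate samples of the other groups differed by 2.66 to 2.88 times. Arrays that differed by less than the spot noise were averaged, so that control and MCT 270 each had 2 samples and MCT 330 had 1. The spread of MCT 330 was taken from the other groups, and p-values describe the spread between these samples. Control replicates 1 and 2 shared a scan run with MCT 270 replicates 1 and 2, and replicate 3 of both groups shared another. All MCT 330 arrays were in scan runs of their own, so scan run and dose cannot be told apart there. All 13 tested hepatocyte markers were well above background on all 9 arrays. So were 20205 genes in all and each of 15 tested sinusoidal endothelial markers, so this count cannot test the liver label. The mean log2 level of the hepatocyte markers, on the scale given below for Rspo3, was 7.36 to 7.85 across the samples. That of the sinusoidal markers was -0.78 to 0.97.

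The target genes of Wnt signalling in other tissues often carry Tcf/Lef words near their start, so the bases before the start of the genes were searched for CTTTGAT and CTTTGAA on both strands. RefSeq promoter entries (GRCm38.p6) were matched for 5 of the 10 genes (Axin2, Lect2, Rnf43, Wnt2 and Wnt9b), with 6 entries in all. Over the 250 bases before the start, Lect2 was the 1 gene of these 5 with a match, while 7.5% of 32851 promoters of the same length hold either word, 3.21% CTTTGAT and 4.46% CTTTGAA. The Lect2 window is chr13:56548539-56548788 on the minus strand, with the word on the opposite strand 32 to 26 bases before the start. Axin2 (chr11:108920099-108920348, plus strand), the standard readout of the pathway, is shown as the entry without a match. Sp5 (chr2:70474673-70474922, plus strand) and Tnfrsf19 (chr14:61037988-61038237, minus strand), targets from a textbook list whose values are given further on, hold CTTTGAT 104 to 98 bases before the start and its reverse complement 202 to 196 bases before the start. Sequences run 5′ to 3′ along the gene, and capitals mark the matched word. Of the textbook targets beside the members, 8 had an entry and 3 held a word: Sp5, Tnfrsf19 (in 1 of 2 entries) and Dkk1. Nkd1, Ascl2, Cd44, Lef1 and Tcf7 held none. Both printed examples were chosen for their match. A match is a description of these letters and was not tested as a binding site.

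Lect2: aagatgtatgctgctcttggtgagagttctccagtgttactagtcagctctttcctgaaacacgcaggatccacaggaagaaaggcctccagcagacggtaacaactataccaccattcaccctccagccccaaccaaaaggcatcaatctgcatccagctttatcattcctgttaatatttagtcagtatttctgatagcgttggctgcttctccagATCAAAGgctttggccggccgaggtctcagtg
Axin2: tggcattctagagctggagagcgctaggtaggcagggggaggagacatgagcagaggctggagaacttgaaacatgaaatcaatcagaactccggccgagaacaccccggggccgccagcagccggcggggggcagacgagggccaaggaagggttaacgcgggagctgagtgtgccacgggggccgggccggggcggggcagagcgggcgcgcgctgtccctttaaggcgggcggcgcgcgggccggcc
Sp5: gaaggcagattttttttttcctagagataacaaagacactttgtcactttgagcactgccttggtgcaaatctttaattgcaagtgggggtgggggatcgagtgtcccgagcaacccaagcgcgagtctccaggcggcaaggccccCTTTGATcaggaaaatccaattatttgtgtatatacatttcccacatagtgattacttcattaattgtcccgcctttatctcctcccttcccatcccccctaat
Tnfrsf19: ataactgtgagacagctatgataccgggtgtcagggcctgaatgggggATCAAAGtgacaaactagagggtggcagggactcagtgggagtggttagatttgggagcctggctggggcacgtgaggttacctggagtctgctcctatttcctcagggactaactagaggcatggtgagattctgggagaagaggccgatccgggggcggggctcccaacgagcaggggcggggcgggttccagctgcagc

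At the higher dose 7 of the 9 tested genes fell against control and none rose: Rspo3, Wnt9b, Lgr5, Axin2, Tbx3, Notum and Lect2. Of all genes tested, 23.8% fell and 9.48% rose, which is 33.3% (8257 genes) in either direction. The median log2 fold change of the 9 genes was -1.37, and that of all genes was -0.25. Since the array scaling moves this centre (to 0.13 when arrays are scaled to their median), changes at MCT 330 are also given relative to it. The scaling also moves the counts over all genes, here 5906 lower and 2351 higher. These were 4260 and 3079 by quantile normalization, 3374 and 4072 by median scaling, and 3924 and 3680 by normexp with quantile normalization. List counts under another scaling are to be read beside those of that scaling. At the lower dose none of the 9 passed, as was so for 0 of all 24808 genes, whose lowest adjusted p was 0.0594. Tests are limma's moderated tests with Benjamini-Hochberg adjustment over all genes and a threshold of 0.05.

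**Figure D1:**
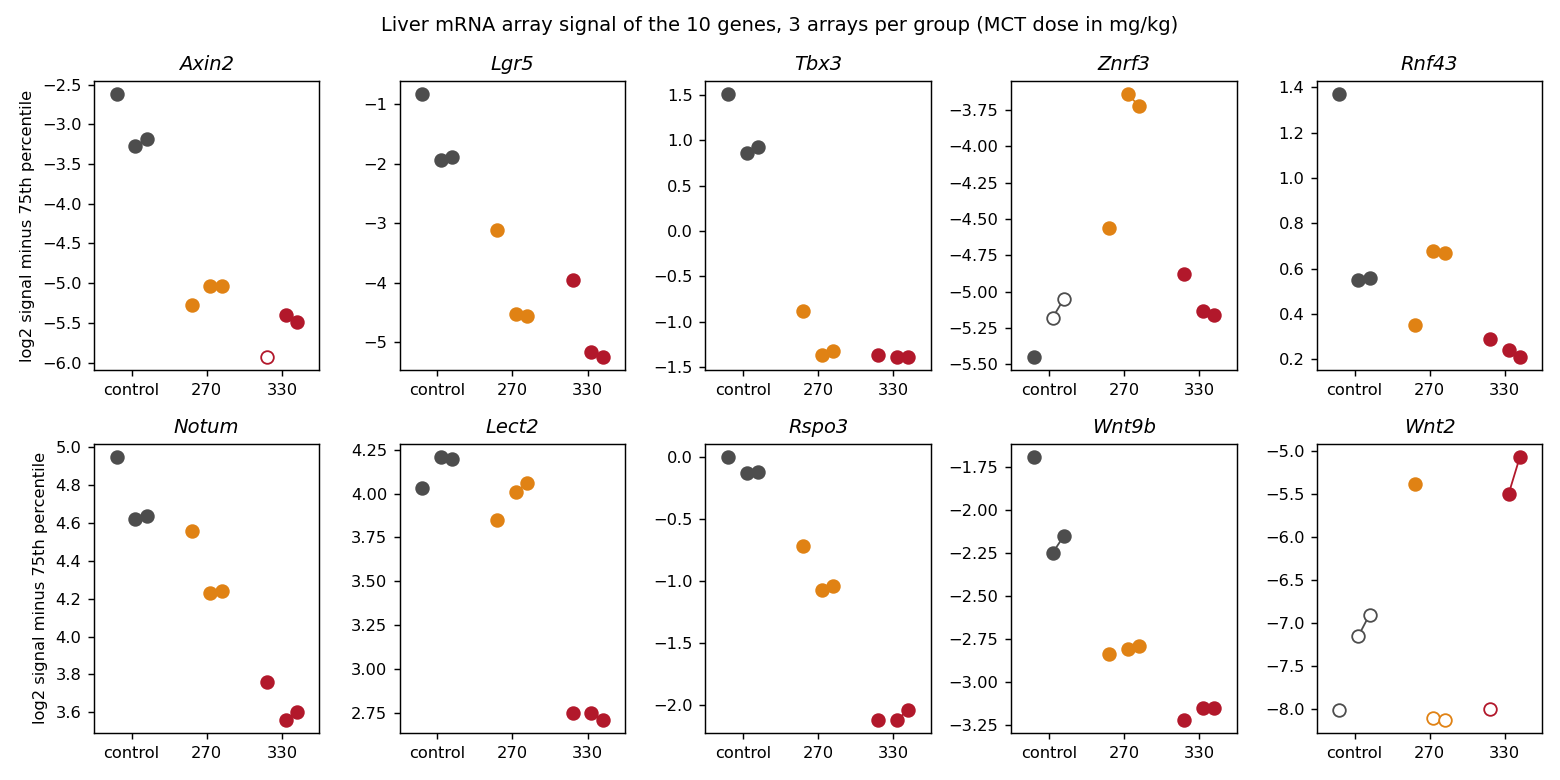
Each panel plots 1 gene on the 9 arrays (y axis: log2 processed signal minus the array's 75th percentile; x axis: control and the MCT dose in mg/kg). Open points were not well above background, lines join replicates 2 and 3, and panels have separate y axes. Tbx3, Axin2, Lgr5, Rspo3, Wnt9b and Notum lie lower on all MCT arrays than on all control arrays, and Rspo3 lies lowest at 330 mg/kg.

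Rspo3, the R-spondin of central vein endothelium, fell at MCT 330, with values at MCT 270 between those of the other groups. Its level, as log2 processed signal minus the array's 75th percentile, was 0.00, -0.13 and -0.12 in control, -0.72, -1.07 and -1.04 at MCT 270, and -2.12, -2.12 and -2.04 at MCT 330. The 3 groups did not overlap. The difference from control was -0.82 ± 0.19 (SE) at MCT 270 (adjusted p = 0.141 in limma) and -2.03 ± 0.23 at MCT 330, a 4.10-fold fall (adjusted p = 0.00935 in limma), or -1.78 relative to the median of all genes. MCT 330 also lay lower than MCT 270, by -1.21 ± 0.23 (adjusted p = 0.0309 in limma), although this call was lost without MCT 270 replicate 1 (-1.05, adjusted p = 0.142 in limma).

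Wnt9b, the other tested endothelial ligand, was -1.69, -2.25 and -2.15 in control, -2.84, -2.81 and -2.79 at MCT 270, and -3.22, -3.15 and -3.15 at MCT 330. Every MCT array was below every control array, and every MCT 330 array below every MCT 270 array. The differences from control were -0.87 ± 0.23 at MCT 270 (adjusted p = 0.162 in limma) and -1.24 ± 0.28 at MCT 330 (adjusted p = 0.0302 in limma), the latter 2.37-fold and -0.99 relative to the median of all genes. The call at MCT 330 was not kept under quantile normalization (adjusted p = 0.0555), scaling to the median (0.0561) or normexp with quantile normalization (-0.44, adjusted p = 0.077), nor without MCT 270 replicate 1 (0.0637), all in limma. Wnt2, a further endothelial ligand, was well above background on 3 arrays: MCT 270 replicate 1 at -5.39 and MCT 330 replicates 2 and 3 at -5.50 and -5.07. Its other 6 arrays were between -8.12 and -6.90, and these arrays show no direction for it.

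In whole liver, fewer cells of a type and less RNA per cell cannot be told apart, and other endothelial genes moved beside these ligands. Of 15 tested sinusoidal endothelial markers 10 fell at MCT 330 and none rose, against 23.8% of all genes lower and 9.48% higher. The largest falls were Ehd3 at -3.78 ± 0.30 and Clec4g, a sinusoidal lectin, at -3.43 ± 0.29 (adjusted p = 0.0087 each in limma). Of 15 tested pan-endothelial markers 10 fell as well and none rose. The largest falls were those of the phosphatase Ptprb (-2.90 ± 0.23) and the VEGF receptor Flt1 (-2.27 ± 0.25). The count of falls was 3 when arrays were scaled to the median, where 3374 of all 24808 genes fell. It was 3 at the lowest with 1 array left out. Cdh5, of the same list, was higher without passing (0.71 ± 0.20, adjusted p = 0.0507 in limma). Under each of the other scalings 1 pan-endothelial marker passed as higher. The summed signal of the sinusoidal markers, in units of each array's 75th percentile, was 45.8 and 43.5 in the control samples, 22.2 and 18.6 at MCT 270, and 12.6 at MCT 330. For the pan-endothelial markers it was 18.4 and 20.2, then 13.8 and 12.6, then 10.8.

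Central vein endothelial markers did not move as a block. Beside Rspo3 and Wnt9b, 2 of 8 tested markers fell at MCT 330 and 2 rose, against 23.8% of all genes lower and 9.48% higher. Cdh13, a cadherin, fell by 1.71 ± 0.29 on the log2 scale (adjusted p = 0.0167 in limma), as did the adhesion receptor Selp (-0.96 ± 0.24). The thrombin receptor Thbd rose by 1.41 ± 0.20 (adjusted p = 0.0129 in limma), and Lhx6, a homeobox factor, rose by 0.86 ± 0.22. With the members 4 of 10 fell, and 2 of 10 under each of the other scalings, where fewer of all genes fell as well. The summed signal of the 10 central vein markers was 8.07 and 8.66 in control, 6.99 and 6.69 at MCT 270 and 7.98 at MCT 330. Bright genes such as Fabp4 weigh most in this sum. The mean log2 level of the 10 markers was -0.76 and -0.99 in control, -1.20 and -1.30 at MCT 270 and -1.31 at MCT 330. All 10 were well above background on all 9 arrays. The part of endothelial cell number in the values of Rspo3 and Wnt9b was not tested.

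Lgr5, the R-spondin receptor of pericentral hepatocytes, had the largest fitted fall of the 9 genes at MCT 330 and the widest spread. Its levels were -0.83, -1.94 and -1.88 in control, -3.11, -4.52 and -4.56 at MCT 270, and -3.95, -5.16 and -5.25 at MCT 330. Control arrays lay above all MCT arrays, and the 2 MCT groups overlapped. Replicate 1 was the highest array in each of the 3 groups, and the control samples differed by 1.08 and the MCT 270 samples by 1.43. The difference from control was -2.46 ± 0.60 at MCT 270 (adjusted p = 0.151 in limma) and -3.21 ± 0.74 at MCT 330, or 9.27-fold (adjusted p = 0.0326 in limma; -2.96 relative to the median of all genes). Without control replicate 1 the value at MCT 330 was -2.67 and the call was lost (adjusted p = 0.0734 in limma), and normexp with quantile normalization gave -1.68 (adjusted p = 0.0503).

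Axin2, a scaffold of the beta-catenin destruction complex and the feedback gene most often used as a readout of Wnt signalling, had lower values at both doses and passed the test at MCT 330. Its brighter probe was -2.62, -3.27 and -3.19 in control, -5.27, -5.03 and -5.03 at MCT 270, and -5.93, -5.40 and -5.49 at MCT 330, where replicate 1 was not well above background. No control array overlapped an MCT array, and the gap between the MCT groups was small beside that to control. The difference from control was -2.22 ± 0.26 at MCT 270 (4.67-fold; adjusted p = 0.0882 in limma) and -2.76 ± 0.32 at MCT 330 (6.78-fold; adjusted p = 0.00948 in limma; -2.51 relative to the median of all genes). Normexp with an offset of 50 gave -0.82 at MCT 330 (adjusted p = 0.0208 in limma), the lowest fall over the alternatives. A second probe of Axin2 was well above background only on MCT 330 replicates 2 and 3, at -5.23 and -5.48, with its other arrays between -8.41 and -6.63, so it did not show the fall of the first.

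Tbx3, a T-box transcription factor and target of beta-catenin in pericentral hepatocytes, was 1.51, 0.86 and 0.93 in control, -0.88, -1.37 and -1.32 at MCT 270 and -1.37, -1.39 and -1.39 at MCT 330. All MCT arrays lay below all control arrays, and the MCT groups overlapped. The difference from control was -2.32 ± 0.29 at MCT 270 (4.99-fold; adjusted p = 0.0922 in limma) and -2.58 ± 0.36 at MCT 330 (6.00-fold; adjusted p = 0.0121 in limma; -2.33 relative to the median of all genes). Between the doses the difference was -0.27 ± 0.36, with a 95% interval of -1.21 to 0.67, and it was 0.08 when arrays were scaled to the median.

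Of the feedback inhibitors at the membrane, Notum fell at MCT 330 and the ligases Znrf3 and Rnf43 did not pass. Notum, a secreted enzyme that removes the lipid of Wnt ligands, was 4.95, 4.62 and 4.64 in control, 4.56, 4.23 and 4.24 at MCT 270 and 3.76, 3.56 and 3.60 at MCT 330. The 3 groups did not overlap, and the difference from control was -0.39 ± 0.21 at MCT 270 (adjusted p = 0.389 in limma) and -1.12 ± 0.26 at MCT 330 (2.17-fold; adjusted p = 0.0332 in limma; -0.87 relative to the median of all genes). The call at MCT 330 was lost in 6 of 21 alternatives, such as scaling to the median (-0.74, adjusted p = 0.0749 in limma) and leaving out control replicate 1 (-0.95, adjusted p = 0.0636) or MCT 270 replicate 1 (adjusted p = 0.0614).

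Rnf43 was 1.37, 0.55 and 0.56 in control, 0.35, 0.68 and 0.67 at MCT 270 and 0.29, 0.24 and 0.21 at MCT 330. Control replicate 1 stood above the other 8 arrays, and without it the difference from control was -0.04 at MCT 270 and -0.30 at MCT 330, in place of -0.45 ± 0.32 and -0.70 ± 0.39 (adjusted p = 0.501 and 0.225 in limma). The 95% interval at MCT 330, -1.74 to 0.33, leaves room for a fall as large as that of Notum. Znrf3 was the 1 gene with higher values after MCT: -5.45, -5.18 and -5.05 in control, where 1 of 3 arrays was well above background, -4.56, -3.64 and -3.72 at MCT 270, and -4.88, -5.13 and -5.16 at MCT 330. Its MCT 270 arrays lay above all other arrays, at 1.16 ± 0.34 over control (adjusted p = 0.195 in limma), and at MCT 330 the difference was 0.27 ± 0.42 (adjusted p = 0.644, 95% interval -0.83 to 1.37).

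Lect2, a hepatocyte-secreted factor described as a target of beta-catenin, was 4.03, 4.21 and 4.20 in control, 3.85, 4.01 and 4.06 at MCT 270 and 2.75, 2.75 and 2.71 at MCT 330. Control and MCT 270 overlapped, and MCT 330 lay below both. The difference from control was -0.17 ± 0.17 at MCT 270 (95% interval -0.62 to 0.27; adjusted p = 0.623 in limma) and -1.37 ± 0.21 at MCT 330 (2.59-fold; adjusted p = 0.014 in limma; -1.12 relative to the median of all genes). MCT 330 was also lower than MCT 270, by -1.20 ± 0.21 (adjusted p = 0.0265 in limma), a call lost without MCT 270 replicate 1 (adjusted p = 0.114).

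**Figure D2:**
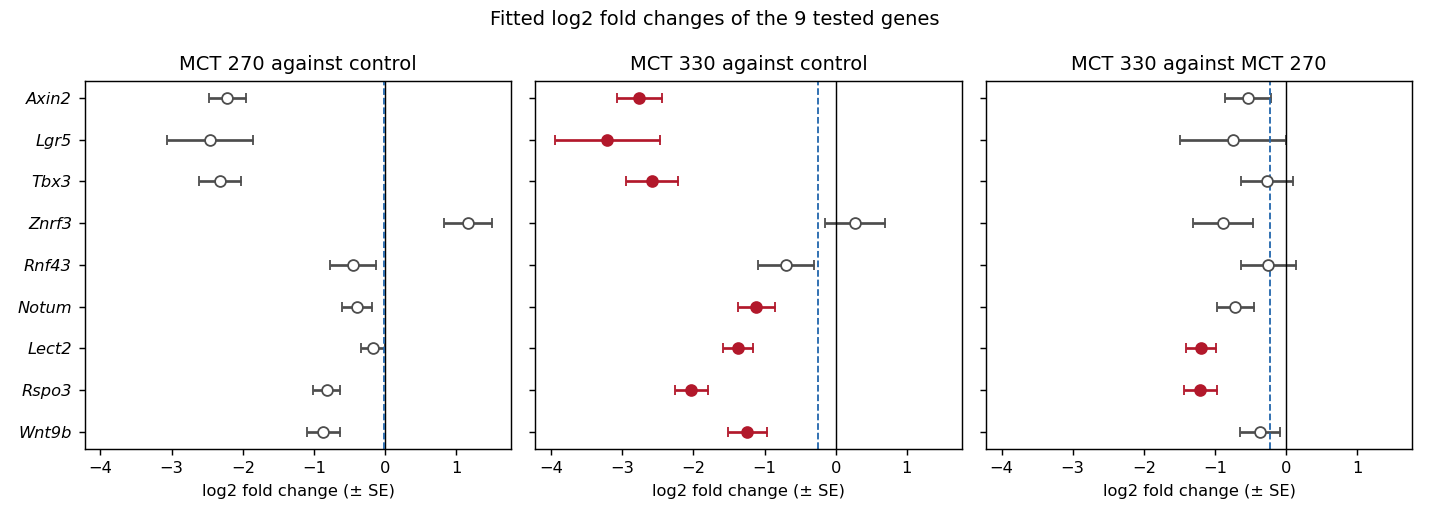
Log2 fold change (x axis) of the 9 tested genes in the 3 comparisons, with bars of 1 SE from limma. Filled red points passed an adjusted p of 0.05, the solid line is 0 and the dashed line is the median of all genes (-0.02, -0.25 and -0.23). At MCT 270 the fitted values of Axin2, Lgr5 and Tbx3 were near those at MCT 330, and none of the 3 passed there after adjustment over all genes.

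The comparisons share samples, so they are set side by side and not counted as separate evidence. At MCT 270, 8 of the 9 values were below 0 with a median of -0.82. Unadjusted p was under 0.05 for 5 lower genes and 1 higher gene, against 8.78% lower and 9.81% higher of all genes (18.6%, or 4612 genes, in all). Every MCT 270 array was below every control array for 6 of the 9 genes (25.2% of all genes) and above for Znrf3 (23.1%). Against control at MCT 330, the arrays were apart and lower for 8 of the 9 (49.9% of all genes) and higher for none (28.9%). Between the doses, Lect2 and Rspo3 fell and no gene rose, against 16.9% of all genes lower and 4.99% higher, 21.9% in all, and the arrays were apart and lower for 7 of the 9 (51.1% of all genes) and higher for none (27.2%).

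The pericentral hepatocyte programme, which beta-catenin maintains, fell widely at MCT 330. Leaving out the members, 15 of 19 other pericentral genes fell and 1 rose, with a median log2 fold change of -2.31, against 23.8% of all genes lower. Glul, glutamine synthetase of the hepatocytes next to the vein, was 5.18 and 4.69 in the control samples, 1.97 and 1.04 at MCT 270 and 1.40 at MCT 330. It fell by 3.54 ± 0.46 on the log2 scale at MCT 330 (adjusted p = 0.0108 in limma). Slc1a2, a glutamate transporter, fell by 3.38 ± 0.34 (adjusted p = 0.00872), and Cyp7a1, the rate-limiting enzyme of bile acid synthesis, fell by 3.44 ± 0.48 (adjusted p = 0.0123). Gstm3, a glutathione transferase, was the 1 that rose, by 1.47 ± 0.34 (adjusted p = 0.0323). With the members, 20 of 26 fell, and the count was 16 to 18 under the other scalings, and 7 at an adjusted p of 0.01.

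At MCT 270 none of the pericentral genes passed, and the fitted values split. For Glul, Slc1a2 and Oat, an ornithine aminotransferase, the values at MCT 270 were -3.43 ± 0.37, -3.10 ± 0.28 and -1.91 ± 0.22 (adjusted p = 0.0809, 0.0788 and 0.0864 in limma), close to those at MCT 330, as for Axin2, Lgr5 and Tbx3. Between the doses these 3 did not pass (adjusted p = 0.89, 0.597 and 0.194 in limma). In contrast 7 of the 19 fell between MCT 270 and MCT 330, as Lect2 did, against 16.9% of all genes lower. They include Cyp1a2 (-2.08 ± 0.25, adjusted p = 0.0205 in limma), a xenobiotic-metabolising P450, and Rgn (-2.45 ± 0.20, adjusted p = 0.0204). Cyp7a1 changed most of these named genes between the doses, at -4.62 ± 0.48 (adjusted p = 0.0204 in limma), and was higher than control at MCT 270 by 1.18 ± 0.39 (adjusted p = 0.227). With the members, 8 of 26 pericentral genes fell between the doses, and 4 to 9 under the other scalings. All of these calls between the doses were lost without MCT 270 replicate 1, which leaves 1 sample in each MCT group. They were also lost with the replicate number as a block, where 0 of all genes passed. Oat, Cyp1a2, Rgn and Gstm3 were singled out after their values were seen.

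**Figure D3:**
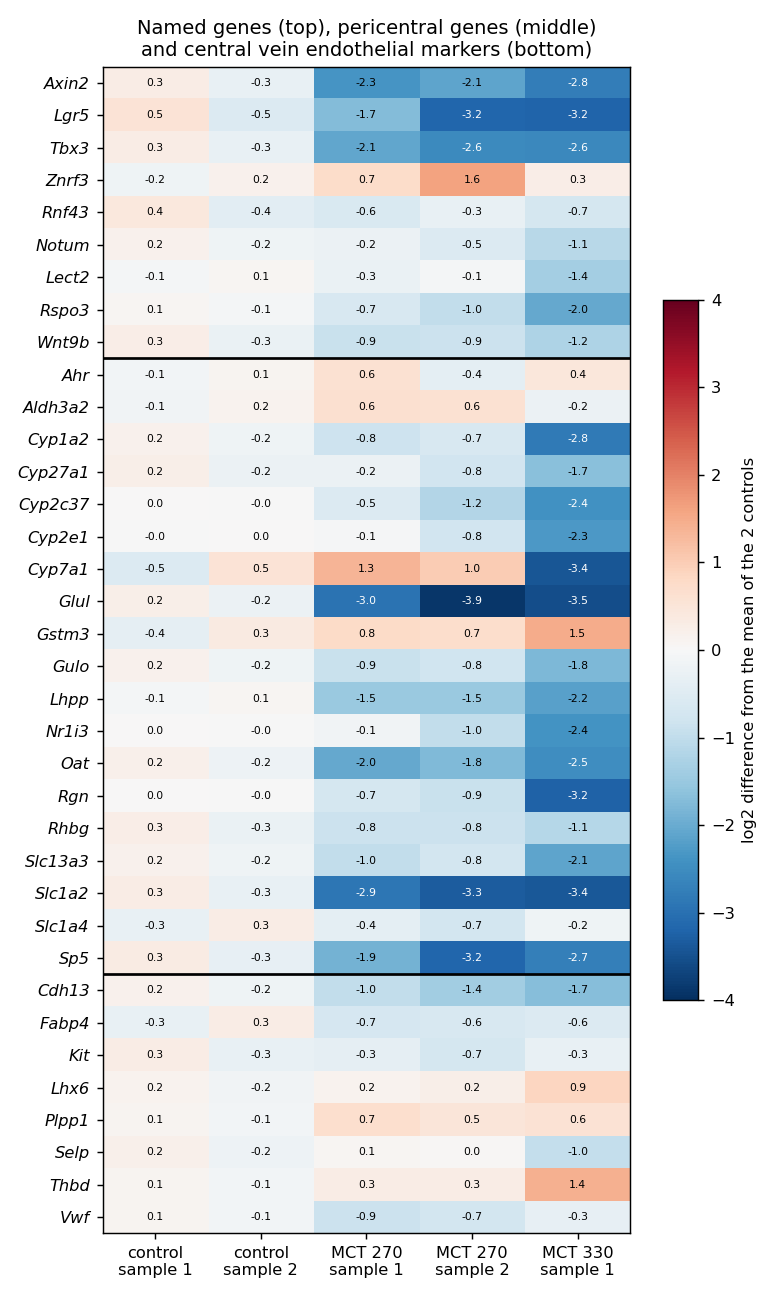
Log2 difference of each sample (columns) from the mean of the 2 control samples, for the 9 tested genes, the other 19 pericentral genes and the other 8 central vein endothelial markers (rows), with lower values in blue and higher in red. Glul, Slc1a2, Axin2, Lgr5, Tbx3 and Sp5 are blue in all 3 MCT samples, Lect2, Cyp7a1 and Rgn are darkest at MCT 330, and Thbd is red there.

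Whole-list counts put this beside other hepatocyte genes, with 23.8% of all genes lower and 9.48% higher at MCT 330. Of 20 tested periportal genes, which mark the opposite end of the lobule, 6 fell and 1 rose at MCT 330, with a median of -0.80 (3 to 6 falls under the other scalings). G6pc, the last enzyme of gluconeogenesis, fell by 3.75 ± 0.78 (adjusted p = 0.0259 in limma) and the urea cycle gene Otc by 2.12 ± 0.19 (adjusted p = 0.0087). Of 13 hepatocyte markers 3 fell, with a median of -0.29, and none fell when arrays were scaled to the median. Their summed signal was 3110 and 3550 in control, 3390 and 2800 at MCT 270 and 2810 at MCT 330. That of the 26 pericentral genes, members included, was 717 and 700, then 579 and 412, then 216. Cyp2e1 weighs most in this sum in control and at MCT 270. Its log2 levels were 8.37 and 8.40 in control, 8.33 and 7.61 at MCT 270 and 6.08 at MCT 330. The mean log2 level of the 26 genes was 2.37 and 2.21, then 1.51 and 1.24, then 0.46. Of 8 neutrophil and monocyte markers 4 were well above background on all 9 arrays, and 3 of these rose at MCT 330: S100a8 (5.82 ± 0.49), S100a9 (5.57 ± 0.63) and Chil3 (4.07 ± 0.39). The 8 markers had summed signals of 8.87 and 11.8 in control, 8.68 and 9.88 at MCT 270 and 44.8 at MCT 330. Most of the sum in control and at MCT 270 was Csf3r, which did not pass at MCT 330 (-0.29 ± 0.24, adjusted p = 0.388 in limma). The mean log2 level of the 8 markers was -3.28 and -2.91 in control, -2.72 and -2.27 at MCT 270 and 0.72 at MCT 330. The part of such shifts in cell make-up in the values of the 10 genes was not tested.

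Among further target genes of Wnt signalling in many tissues, 10 were tested beside the members. At MCT 330 3 of the 10 fell and 1 rose, with a median of -0.08, against 23.8% of all genes lower and 9.48% higher. Sp5, a zinc finger factor, was -0.64 and -1.30 in control, -2.86 and -4.15 at MCT 270 and -3.69 at MCT 330, a difference of -2.72 ± 0.61 at MCT 330 (adjusted p = 0.0305 in limma). Nkd1, an inhibitor of Dishevelled, fell by 2.24 ± 0.24 (adjusted p = 0.00888), and the receptor Tnfrsf19 by 1.32 ± 0.28 (adjusted p = 0.0281). The 1 that passed as higher, Ascl2 at 1.00 ± 0.27 (adjusted p = 0.0482), was well above background on 1 of 3 control arrays, so the size of its difference rests on control signals near background. The cited targets Myc and Ccnd1 were higher without passing, Myc at 2.95 ± 0.84 (adjusted p = 0.0536) and Ccnd1 at 0.88 ± 0.25 (adjusted p = 0.0542), all in limma. Targets in this list did not share a direction. With the members 6 of 15 fell and 1 rose, and the other scalings gave 3 to 5 that fell and 1 to 3 that rose.

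Other parts of the pathway showed a few changes each at MCT 330, where 23.8% of all genes fell and 9.48% rose. Whether these small lists differ from all genes was not tested. Of 12 tested Wnt ligands 4 fell, Wnt9b included, with Wnt4 at -1.82 ± 0.36 (adjusted p = 0.0238 in limma) and Wnt16 at -1.10 ± 0.21 (adjusted p = 0.0221). Of the 12, 1 to 2 fell under the other scalings. Of 6 R-spondins and Lgr receptors 3 fell, the 2 members and Rspo4 (-1.50 ± 0.26, adjusted p = 0.0184). Rspo4 was well above background on 2 of 3 MCT 330 arrays, so the size of its fall rests on signals near background there. Of 11 Frizzled and Lrp receptors 1 fell, Fzd5 (-2.34 ± 0.22, adjusted p = 0.0087), which was also lower than at MCT 270 (-1.89 ± 0.22, adjusted p = 0.0205). Porcn, which lipidates Wnt ligands, was the 1 of 2 Wnt secretion genes that fell (-0.75 ± 0.19, adjusted p = 0.0405), and it did not pass when arrays were scaled to the median. The other scalings gave falls in 1 to 3 of the R-spondins and Lgr receptors and in 1 to 4 of the Frizzled and Lrp receptors.

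Among 14 antagonists and membrane inhibitors, 5 fell and 1 rose at MCT 330, against 23.8% of all genes lower and 9.48% higher. Frzb, a secreted Frizzled-related inhibitor, rose by 2.24 ± 0.29 (adjusted p = 0.0109 in limma), and its value at MCT 270 was 2.21 ± 0.24 (adjusted p = 0.0809). Sostdc1 (-1.65 ± 0.19, adjusted p = 0.0092) and Dkk3 (-1.64 ± 0.32, adjusted p = 0.0227) fell, as did the member Notum. The other falls, of Sfrp2 and Sost, rest on signals near background. These genes were well above background on 2 and 1 of 3 control arrays and on 2 of 3 MCT 330 arrays each. Of 23 cytoplasmic components 4 fell and 2 rose: the falls included Axin2, Nkd1 and Btrc (-1.57 ± 0.20, adjusted p = 0.0109), the adaptor that marks beta-catenin for degradation. Ctnnb1, which encodes beta-catenin, was at 0.59 ± 0.19 (adjusted p = 0.0697). Of 14 Tcf/Lef factors and co-factors 6 fell, among them Sp5, Tcf7l1 (-1.65 ± 0.30, adjusted p = 0.0193) and the co-repressor Tle2 (-1.46 ± 0.26, adjusted p = 0.0184), while Tcf7l2, the main Tcf factor of liver, was at 0.09 ± 0.23 (adjusted p = 0.778). The Tcf/Lef count was 3 to 5 under the other scalings, with 1 to 2 that rose. They gave 3 to 4 falls among the antagonists, and 3 falls with 4 rises among the cytoplasmic components.

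**Figure D4:**
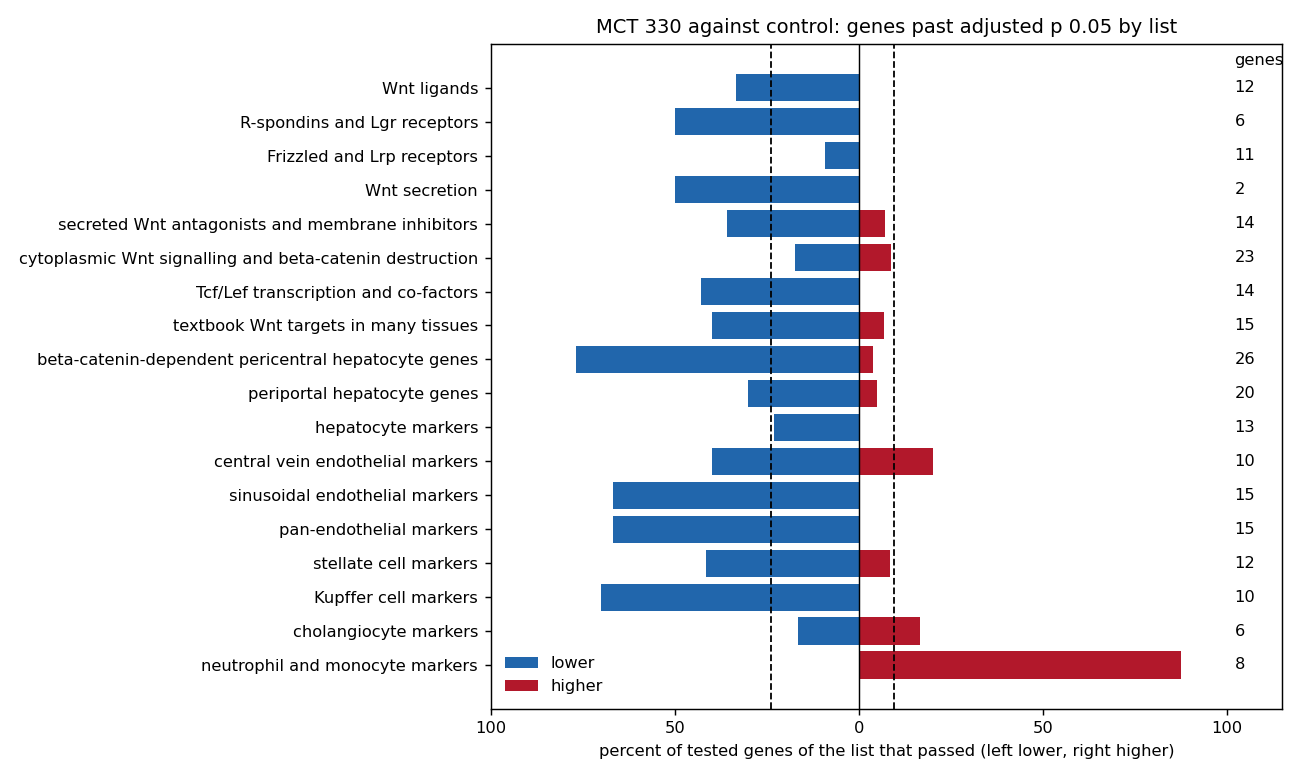
Share of the tested genes of each list (rows) that passed an adjusted p of 0.05 at MCT 330 against control, lower to the left and higher to the right, with the number tested at the right. Dashed lines are the shares over all genes, 23.8% lower and 9.48% higher, and lists overlap in part. Pericentral, sinusoidal, pan-endothelial and Kupffer lists lie beyond the left line by the widest margins among the lists drawn. Neutrophil and monocyte markers lie beyond the right line, where 4 of the 8 genes were not well above background on all arrays.

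The genes whose pattern over the 5 samples was most like that of Axin2, Lgr5 and Rspo3 were found by root mean square distance of log2 differences from the control mean, over about 13715 genes that had an official symbol, clone and predicted names left out, and were well above background on all 9 arrays. For Axin2 these were Abi3bp (0.123), Tbx3 (0.244) and Tln2 (0.245). For Lgr5 they were Sp5 (0.263), Omd (0.440) and Tbx3 (0.448). For Rspo3 they were Kcnj10 (0.0363), Slc9a3r2 (0.0437) and Mipol1 (0.0514). Axin2, Znrf3 and Wnt2 were not well above background on all 9 arrays and so could not appear as matches. Of the other members, Tbx3 appeared for both Axin2 and Lgr5, and none appeared for Rspo3.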

How the data were processed

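The deposited mRNA values are spot intensities from 1-colour scans, which the file headers credit to Agilent Feature Extraction 11.0.1.1, run by the authors with background subtraction and detrending. Of 43020 spots that are no controls, repeated spots were averaged to 39429 probes. All log2 values were computed here: the log2 of the processed signal, less the 75th percentile of its array. Outlier spots were dropped. A probe had to exceed background clearly on every array of some group (29949 did), and a gene took its brightest probe (24808 genes). Of 33258 systematic names, 21464 matched a symbol. Per array, 64% to 80.9% of probes were well above background, and no spot was saturated. The number of arrays limits the precision.

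Arrays with a median difference under 1.5 times the spot noise were averaged, a limit set after the data were seen, as was the spot correlation of 0.6 taken for a repeat scan. The replicate numbers do not pair samples: the labels give separate mice, and the differences between the 2 control and the 2 MCT 270 samples correlated at 0.0152 across genes. Groups were compared with limma 3.58.1 in R 4.3.3 (1 fit over the 3 groups, tested on simulated data), with Benjamini-Hochberg adjusted p under 0.05. Alternatives were the scaling, background correction, filter, probe choice, sample definition, replicate block and leaving out each array. The use of 1 scan per array and of the scan run that holds both groups were added after seeing the data. The members and gene lists were chosen with earlier results of these data known. Named were all members and, per list, the 3 genes with the largest change that passed at MCT 330 (at most 2 for markers of other cell types), with exceptions stated; a gene that the rule names is not reported here. The miRNA arrays were not used here.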

Additional observations from a re-analysis of the deposited data

How the results depend on the processing

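The falls of Axin2, Tbx3, Lect2 and Rspo3 at MCT 330 against control stayed under an adjusted p of 0.05 in every refit run (highest in limma 0.0371, 0.0411, 0.0453 and 0.037), except that the filter on all 9 arrays left Axin2 out. At the stricter threshold of 0.01, Axin2 and Rspo3 passed and Tbx3 and Lect2 did not. Lgr5 lost its call in 4 of 21 alternatives, and Notum and Wnt9b in 6 of 21 each. Reversed values between the doses were 0.08 for Tbx3 and 0.10 for Rnf43 when scaled to the median, and 0.08 for Wnt9b with normexp. The cause of these changes was not tested.

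Of the 9 genes, those called at MCT 270, at MCT 330 and between the doses (0, 7 and 2) became: 2 at MCT 330 and 0 between the doses at an adjusted p of 0.01; 4 at MCT 330 by quantile normalization; 0 between the doses by median scaling; 1, 4 and 1 by normexp; 4 at MCT 330 and 0 between the doses without a filter, where more genes are tested; and 1 (Tbx3) at MCT 270 with the filter on all 9 arrays. Treating 9 arrays as 9 samples gave 7 at MCT 270 and 5 between the doses, where 9546 and 16118 of all 24770 genes passed. Between the doses this is a smaller share of the members than of all genes. MCT 330 replicate 1 as its own sample gave 3 at MCT 270 (Axin2, Tbx3 and Rspo3), where 1725 of 24781 genes passed. Leaving out 1 array gave 0 to 0, 5 to 7 and 0 to 2, with 5 without control replicate 1 and 0 between the doses without MCT 270 replicate 1.

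Over all genes, calls at MCT 270 (0) became 31 by median scaling, 522 by normexp, 409 with the filter on all 9 arrays, 9546 as 9 samples and 1725 with MCT 330 replicate 1 apart. Calls at MCT 330 (8257) became 1361 at an adjusted p of 0.01, 3604 without a filter, 18058 as 9 samples and 13731 with replicate 1 apart, and those between the doses (5437) became 0, 0, 16118 and 11228. Leaving out 1 array gave 0 to 0, 4958 to 8418 and 0 to 7273, lowest at both without MCT 270 replicate 1. The split of higher against lower calls at MCT 330, 2351 against 5906, was 3079 against 4260 by quantile normalization, 4072 against 3374 by median scaling and 3680 against 3924 by normexp. Between the doses 1239 against 4198 became 1496 against 2399, 1911 against 1849 and 1980 against 2060.

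With the replicate number as a block, 6 of the 9 genes passed at MCT 330 and 0 between the doses, where 0 of all genes passed. The block with 9 arrays as 9 samples gave 9317, 17915 and 15951 of 24770 genes, and 7 of the 9 members at MCT 270 and 5 between the doses. Low signals limit Axin2, Znrf3 and Wnt2, which are near background on some arrays.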

Other observations

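For some genes of the pathway the values at MCT 270 stood apart from those of both other groups. Tcf7, a Tcf factor best known from T cells, was -2.01 and -2.09 in the control samples, -3.05 and -3.13 at MCT 270 and -1.78 at MCT 330. It was higher at MCT 330 than at MCT 270 by 1.31 ± 0.19 (adjusted p = 0.0221 in limma). Lgr4, the R-spondin receptor found across many epithelia, was -2.24 and -2.59 in control, -1.17 and -0.59 at MCT 270 and -2.04 at MCT 330. Its difference from control was 1.53 ± 0.27 at MCT 270 (adjusted p = 0.11) and 0.38 ± 0.33 at MCT 330 (adjusted p = 0.41). These genes were singled out after their values were seen.

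Stellate and Kupffer cell markers also moved at MCT 330, where 23.8% of all genes fell and 9.48% rose. Of 12 stellate markers 5 fell and 1 rose, with Lrat, the enzyme that stores retinol as esters, at -4.40 ± 0.41 and Colec11, a secreted lectin, at -3.0 ± 0.22. Among 10 Kupffer markers 7 fell, with the complement receptor Vsig4 at -2.64 ± 0.22 and the lectin Clec4f at -2.54 ± 0.25. Each of these 4 had an adjusted p of 0.00871 or lower in limma. Des, the stellate marker that rose, was well above background on 1 of 3 control arrays. It was tested through the MCT groups, and the size of its difference rests on control signals near background.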
